A study of Mus musculus with 4 samples.

Results

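Imprinted genes were followed by chromosomal cluster and by expressed parental allele in 4 RNA‐seq samples. The members were a fixed list of 50 mouse genes with known imprinted expression, and each was looked up by its symbol among the 37620 Ensembl genes of the count tables. Of the 50, 49 were found, and Kcnq1ot1 had no entry under that name. They comprised 22 genes read from the maternal copy, 26 read from the paternal copy, and Gnas, whose expressed copy depends on the transcript. The list fell into 8 clusters with between 2 and 10 members, and 13 genes that lie alone.

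An imprinted gene is read from only the copy inherited from the mother or only the copy inherited from the father. In most clusters, a differentially methylated region (DMR), methylated in either the egg or the sperm, keeps the genes around it in opposite states on the parental chromosomes, often through a long noncoding RNA or the insulator protein CTCF. Many imprinted genes act in the placenta, where paternally expressed genes such as Igf2 tend to promote growth and maternally expressed genes such as Grb10, Phlda2 and Cdkn1c tend to restrain it. The counts used here sum both copies, so which copy was read was not measured.

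The study asked how pluripotent cells respond to combinations of signals, and whether they take on trophoblast features. R1 mouse embryonic stem cells (mESCs) were grown for 2 days in serum‐containing medium under 3 conditions, and F4 trophoblast stem cells (TSCs), a line that renews the stem cells of the placenta, were the comparison. In 2i−L (labelled 2i), the cells received the GSK3 inhibitor CHIR99021 (3 µM) and the MEK inhibitor PD0325901 (1 µM) and no LIF. The 2iJ cells received both inhibitors plus a JAK inhibitor at 2.0 µM, and the 2iJ+B−A cells received all of these plus 10 ng/ml BMP4 and, to block Activin signaling, 10 µM of an ALK5 inhibitor. Every condition had 1 sample among the 4 analysed here, so variation between cultures could not be measured and no difference was tested. TSCs carry the label day 2 as well and differ from the mESCs in line, origin and medium at the same time, and these factors cannot be told apart.

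Read pairs counted on genes ranged from 33913984 to 36964392 per sample. Levels are given as CPM, counts relative to the TMM‐scaled library size, at which 3 counts, the smallest signal taken as detectable, came to between 0.0799 and 0.0902 CPM. The labels were checked against marker genes: 8 pluripotency markers summed to 3936 CPM for 2i−L, 3345 for 2iJ, 2268 for 2iJ+B−A and 655 for TSCs. In TSCs, Pou5f1 was at 1.34 CPM and Nanog at 2.65. Not every marker followed the sums: Klf4 was at 66.2, 32.2, 73.1 and 5.75 CPM and Dppa4 at 98.9, 122, 61.3 and 121, in the same order. The 7 trophoblast stem cell markers found summed to 125, 170, 700.5 and 1619 CPM in the same order. The keratin gene Krt8 made up 92.3, 134, 553 and 884 CPM of these sums, and Eomes was lowest in 2iJ+B−A, at 2.74 CPM. Elf5, a defining trophoblast transcription factor, stayed at 5 counts or fewer in the 3 mESC samples and had 10471 counts in TSCs. In bulk samples such as these, fewer cells of a type and less RNA per cell cannot be told apart.

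Promoter sequences from RefSeq (GRCm38.p6), from 250 bases before to 50 after a gene's start, were on file for 38 of the 49 genes as 58 windows of 300 bases, and each of the 58 had exactly 1 identical place on NCBIM37, the build of the count tables. The windows below were chosen after the values were seen, for the genes that were lower in TSCs by 2‐fold or more and had 10 counts or fewer there: Plagl1, Snrpn, Nnat and Usp29, whose start faces that of Peg3. Capitals mark the hexamer TGCCGC or its complement GCGGCA, the core of the motif bound by ZFP57, a zinc finger protein that keeps imprints methylated in early embryos. Coordinates are those of the identical place on NCBIM37.
Plagl1 (chr10:12810388-12810687, plus strand): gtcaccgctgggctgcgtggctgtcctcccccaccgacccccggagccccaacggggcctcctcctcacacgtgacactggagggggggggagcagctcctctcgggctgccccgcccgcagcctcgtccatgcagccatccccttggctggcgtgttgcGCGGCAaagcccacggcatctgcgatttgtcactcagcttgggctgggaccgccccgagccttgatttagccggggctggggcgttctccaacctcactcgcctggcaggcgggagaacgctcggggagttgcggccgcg
Snrpn (chr7:67150036-67150335, minus strand): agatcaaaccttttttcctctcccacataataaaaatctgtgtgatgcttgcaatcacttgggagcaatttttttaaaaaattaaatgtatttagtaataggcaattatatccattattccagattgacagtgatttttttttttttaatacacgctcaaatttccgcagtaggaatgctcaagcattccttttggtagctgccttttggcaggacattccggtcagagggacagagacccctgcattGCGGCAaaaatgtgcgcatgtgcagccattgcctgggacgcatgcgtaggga
Nnat (chr2:157385564-157385863, plus strand): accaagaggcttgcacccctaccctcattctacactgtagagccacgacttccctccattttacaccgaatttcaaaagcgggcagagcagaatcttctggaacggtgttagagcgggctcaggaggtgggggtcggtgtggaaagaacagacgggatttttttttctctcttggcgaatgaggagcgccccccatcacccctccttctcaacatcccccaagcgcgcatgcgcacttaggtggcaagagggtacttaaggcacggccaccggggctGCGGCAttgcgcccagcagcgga
Peg3 (chr7:6683081-6683380, minus strand): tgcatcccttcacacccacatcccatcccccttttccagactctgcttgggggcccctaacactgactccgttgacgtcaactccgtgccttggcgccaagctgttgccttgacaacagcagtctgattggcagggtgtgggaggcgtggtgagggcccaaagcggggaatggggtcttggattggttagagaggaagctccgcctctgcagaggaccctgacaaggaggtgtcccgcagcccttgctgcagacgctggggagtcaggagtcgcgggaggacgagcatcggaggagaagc
The Plagl1, Snrpn and Nnat windows each held the hexamer in 1 place, and the Peg3 window held none. The Snrpn window is 1 of 4 for that gene, and the other windows of Snrpn held none. Of the other paternally expressed genes with 10 counts or fewer in TSCs and a window, Nap1l5 held the hexamer in 2 places, and Magel2 and Rasgrf1 held none. The windows differed in their content of CG, the dinucleotide that carries DNA methylation, with 26 in Plagl1, 7 in Snrpn and 17 in Nnat. Over both strands, 12 of the 58 windows of the imprinted genes (20.7%) held the hexamer, compared with 3813 of all 32851 windows (11.6%), and the median window had 14.5 CG compared with 7. These shares count windows and not genes, and windows of the same gene can overlap: Mest had overlapping windows among the 12, with the same 2 places in each. A match describes these letters only, and binding or methylation was not measured.

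The summed level of the 49 genes was 3345 CPM for 2i−L, 3631 for 2iJ, 11137 for 2iJ+B−A and 14164 for TSCs, which was 0.324%, 0.356%, 1.13% and 1.47% of all counts on genes. The sums of the first pair were alike, and those of 2iJ+B−A and TSCs were well above both. The 5 genes with the most counts made up 44.1% to 72.5% of each sum. Peg10, Gab1, Slc38a4, H19 and Impact led in 2i−L, and Igf2, H19, Peg10, Grb10 and Peg3 led in TSCs.

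**Figure D1:**
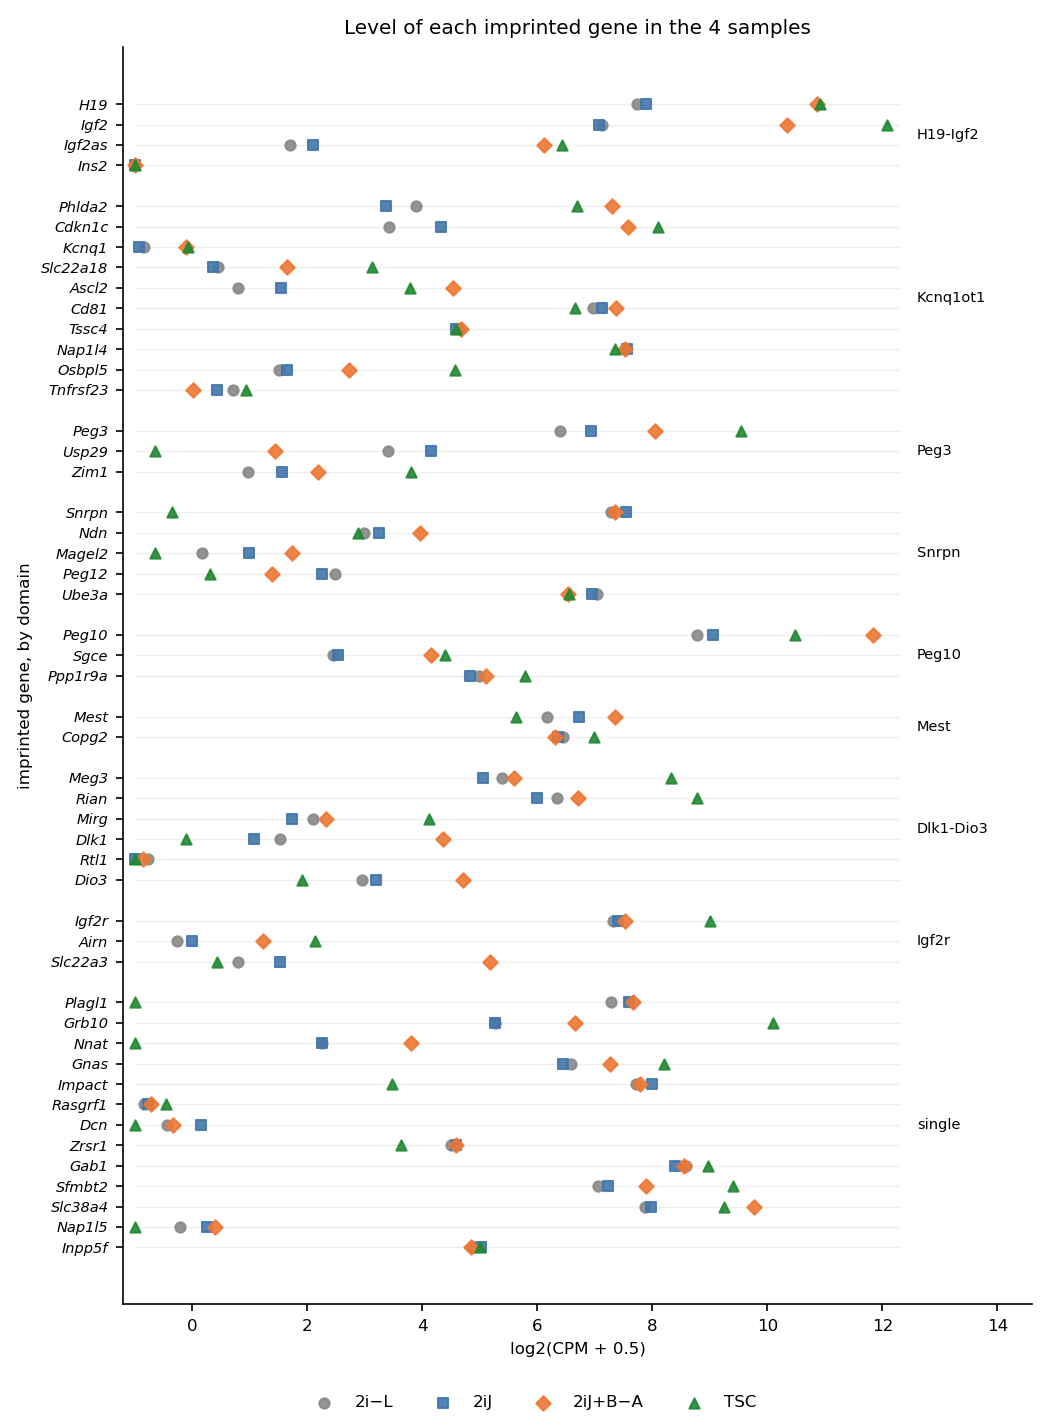
Level of each of the 49 imprinted genes, as log2(CPM + 0.5) on the horizontal axis, with 1 point per sample (circle, 2i−L; square, 2iJ; diamond, 2iJ+B−A; triangle, TSC) and genes grouped by domain. Several distal chromosome 7 genes, among them H19, Igf2, Phlda2 and Cdkn1c, had higher points in 2iJ+B−A and TSCs than in 2i−L and 2iJ. Others there, such as Cd81, Tssc4 and Nap1l4, had their points close together. Plagl1, Snrpn and Impact fell far to the left in TSCs alone.

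Log2 ratios were taken after adding 0.5 CPM to each level, which understates the ratio of genes with few counts. Their 95% Clopper–Pearson intervals cover counting error only. A gene passed when its log2 ratio reached 1 or −1 (2‐fold), if it had at least 1 CPM in at least 1 sample, which 43 of the 49 members and 14263 of all genes did. In 2iJ compared with 2i−L, none of the 43 passed in either direction, whereas 1.23% of the 14263 genes passed upward and 0.918% downward. The ratio nearest to the line was that of Cdkn1c, at 0.92 (interval 0.74 to 1.10), and the median of the 43 was 0.11, compared with 0.00 over all genes.

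In 2iJ+B−A compared with 2iJ, 18 members (41.9%) were higher and 1 (Usp29) was lower. Over all genes, 5.81% passed upward and 3.17% downward. The median log2 ratio of the 43 was 0.70, compared with −0.00 over all genes. In TSCs compared with 2i−L, 21 members (48.8%) were higher and 8 (18.6%) lower, against 19.4% and 17.4% of all genes, and the medians were 0.81 and 0.00. The share of members above the line was thus several times the background in the first of these comparisons, while the share of members below the line in TSCs was near the background.

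**Figure D2:**
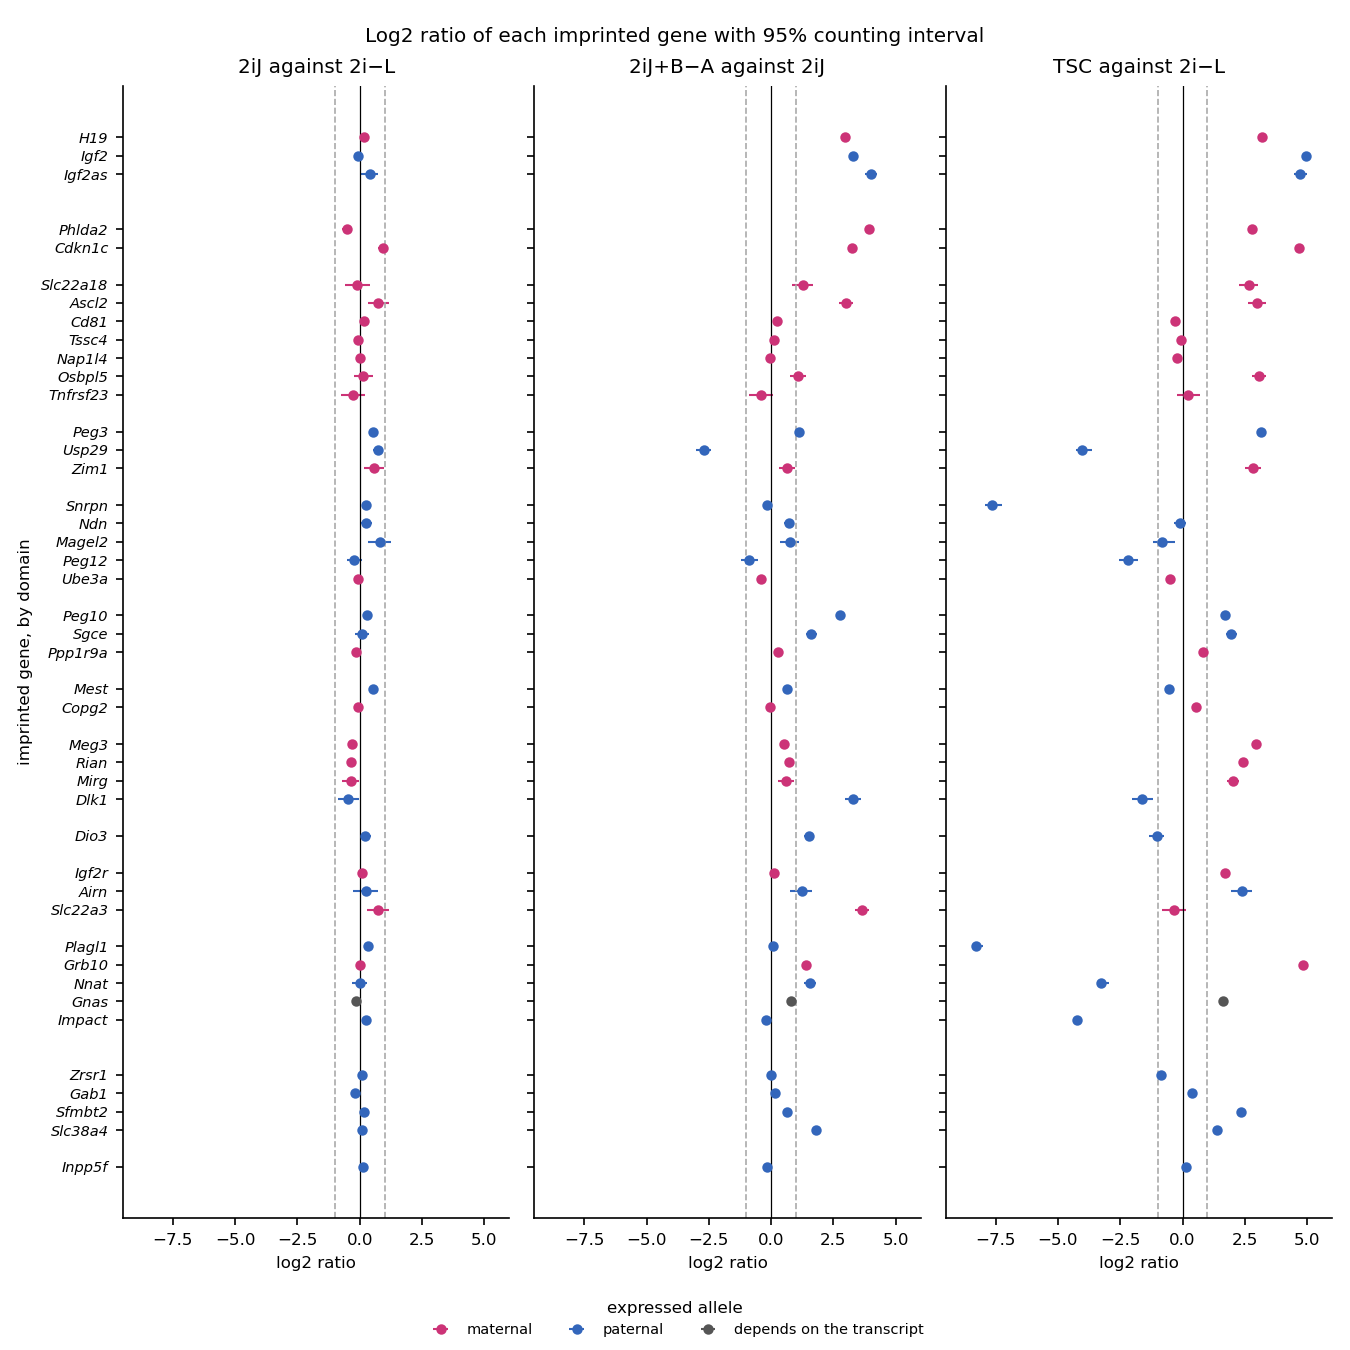
Log2 ratio of each of the 43 imprinted genes with at least 1 CPM (horizontal axis) in 3 comparisons, with 95% counting intervals as bars and the expressed allele as color; dashed lines mark ratios of −1 and 1. No gene lies beyond the lines in 2iJ against 2i−L, 18 lie to the right in 2iJ+B−A against 2iJ, and 21 to the right and 8 to the left in TSC against 2i−L, where Plagl1 and Nnat had 0 counts and their points rest on the added 0.5 CPM.

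Split by expressed allele, both classes had a similar share of higher genes in 2iJ+B−A. Of 20 maternally expressed genes 8 (40%) were higher and 0 lower. Of 22 paternally expressed genes 10 (45.5%) were higher and 1 (4.55%) lower, beside 5.81% and 3.17% of all genes. The medians of the classes were 0.61 and 0.73. In TSCs, 12 of the 20 maternally expressed genes (60%) were higher than in 2i−L and 0 lower (median 2.23). Of the 22 paternally expressed genes, 8 (36.4%) were higher and 8 (36.4%) lower (median −0.32). Over all genes, 19.4% passed upward and 17.4% downward. All 8 lower members in TSCs were thus paternally expressed: Usp29, Snrpn, Peg12, Dlk1, Dio3, Plagl1, Nnat and Impact. With 1 sample per condition, the difference between the classes was not tested.

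The H19–Igf2 domain of distal chromosome 7 had the highest median log2 ratio of the 8 clusters in both comparisons, 3.27 for 2iJ+B−A and 4.72 for TSCs. H19 (ENSMUSG00000000031, chromosome 7 from 149761434 to 149764048, minus strand), a maternally expressed noncoding RNA, was at 211 CPM for 2i−L, 237 for 2iJ, 1867 for 2iJ+B−A and 1939 for TSCs. Igf2 (ENSMUSG00000048583, 149836673 to 149852721, minus strand), a paternally expressed fetal growth factor, was at 140, 134, 1297 and 4354 CPM in the same order. Its antisense transcript Igf2as (149845598 to 149856261, plus strand) was at 2.77, 3.81, 68.8 and 85.6 CPM. For each of the 3 genes, 2i−L and 2iJ were low and 2iJ+B−A and TSCs were high, and H19 reached nearly the same level in the latter pair. The log2 ratios of 2iJ+B−A over 2iJ were 2.97 for H19 (interval 2.94 to 3.01), 3.27 for Igf2 (3.22 to 3.31) and 4.00 for Igf2as (3.78 to 4.24). In TSCs compared with 2i−L, they were 3.19, 4.96 and 4.72. Igf2 thus went beyond its 2iJ+B−A level in TSCs, with a log2 ratio of 1.75 between these samples, and H19 did not (0.05).

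H19 and Igf2 share enhancers, and the paternally methylated control region between them decides which of them is read. Per kb of exon, H19 exceeded Igf2 by 3.50 times in 2i−L, 4.09 times in 2iJ and 3.33 times in 2iJ+B−A, and both were level in TSCs, at 817 and 793 CPM per kb (ratio 1.03). Both genes of the opposed pair were thus higher together in 2iJ+B−A. The exons of Igf2as overlap Igf2 on the other strand, and the libraries were stranded, with 29.1 to 32.1 times as many counts on the expected strand as on the other. Ins2, the next paternally expressed gene, which encodes insulin, had 0 counts in all 4 samples. Of its exons, 89.6% also matched elsewhere, at 88.85% identity, and read pairs mapped to several places were not counted. Whether read pairs of Ins2 were lost this way was not tested, so the 0 counts set no firm limit on its level.

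In the neighbouring Kcnq1ot1 domain, whose maternally expressed genes are held silent on the paternal chromosome by the Kcnq1ot1 noncoding RNA, 5 of 9 genes with enough counts were higher in both comparisons and none were lower. Phlda2 (ENSMUSG00000010760, chromosome 7 from 150687450 to 150688446), which limits placental growth, was at 14.4 CPM for 2i−L, 9.84 for 2iJ, 157 for 2iJ+B−A and 103 for TSCs. Cdkn1c (ENSMUSG00000037664, 150644255 to 150646955), an inhibitor of cyclin‐dependent kinases, was at 10.2, 19.7, 190 and 275 CPM. Ascl2 (ENSMUSG00000009248, 150152727 to 150155169), a transcription factor required for the spongiotrophoblast layer of the placenta, was at 1.23, 2.42, 22.7 and 13.3 CPM. Phlda2 and Ascl2 were highest in 2iJ+B−A and Cdkn1c was highest in TSCs. Their log2 ratios of 2iJ+B−A over 2iJ were 3.93 (3.78 to 4.08), 3.24 (3.13 to 3.35) and 2.99 (2.71 to 3.27).

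Slc22a18, an organic cation transporter, and Osbpl5, an oxysterol‐binding protein, differed less in 2iJ+B−A. Slc22a18 was at 0.872, 0.786, 2.64 and 8.26 CPM, and its log2 ratio of 2iJ+B−A over 2iJ was 1.29 (interval 0.85 to 1.70). Osbpl5 was at 2.35, 2.65, 6.15 and 23.2 CPM, with a ratio of 1.08 (0.77 to 1.39). Both intervals included values under 1, the ratio of Osbpl5 was 0.97 with 1 CPM added, and both genes were highest in TSCs, with log2 ratios to 2i−L of 2.67 and 3.06.

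The other 4 genes with enough counts stayed within 2‐fold in both comparisons. Cd81, a tetraspanin, ranged from 99.8 to 165 CPM, Nap1l4, a histone chaperone, from 162 to 189, and Tssc4 from 23.5 to 25.2. Tnfrsf23 was low, from 0.506 to 1.42 CPM. It is uncertain because 98.2% of its exons also matched elsewhere in the genome, at up to 92.8% identity. Kcnq1, the potassium channel gene within which Kcnq1ot1 starts, had only 2, 1, 16 and 16 counts.

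Genes around the domain were set beside its members. Tnnt3, a troponin gene downstream of H19, had 9, 12, 305 and 101 counts, and Dusp8, a phosphatase gene farther out, had 42, 71, 427 and 261. Their log2 ratios of 2iJ+B−A over 2iJ were 3.34 and 2.21. The other genes with enough counts between H19 and Dusp8 did not pass there, with ratios of 0.21 for Mrpl23, 0.88 for Lsp1, 0.43 for Syt8 and 0.64 for Ctsd. Tnfrsf22, a decoy receptor gene beside Tnfrsf23, had a ratio of −2.51 in TSCs compared with 2i−L.

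**Figure D3:**
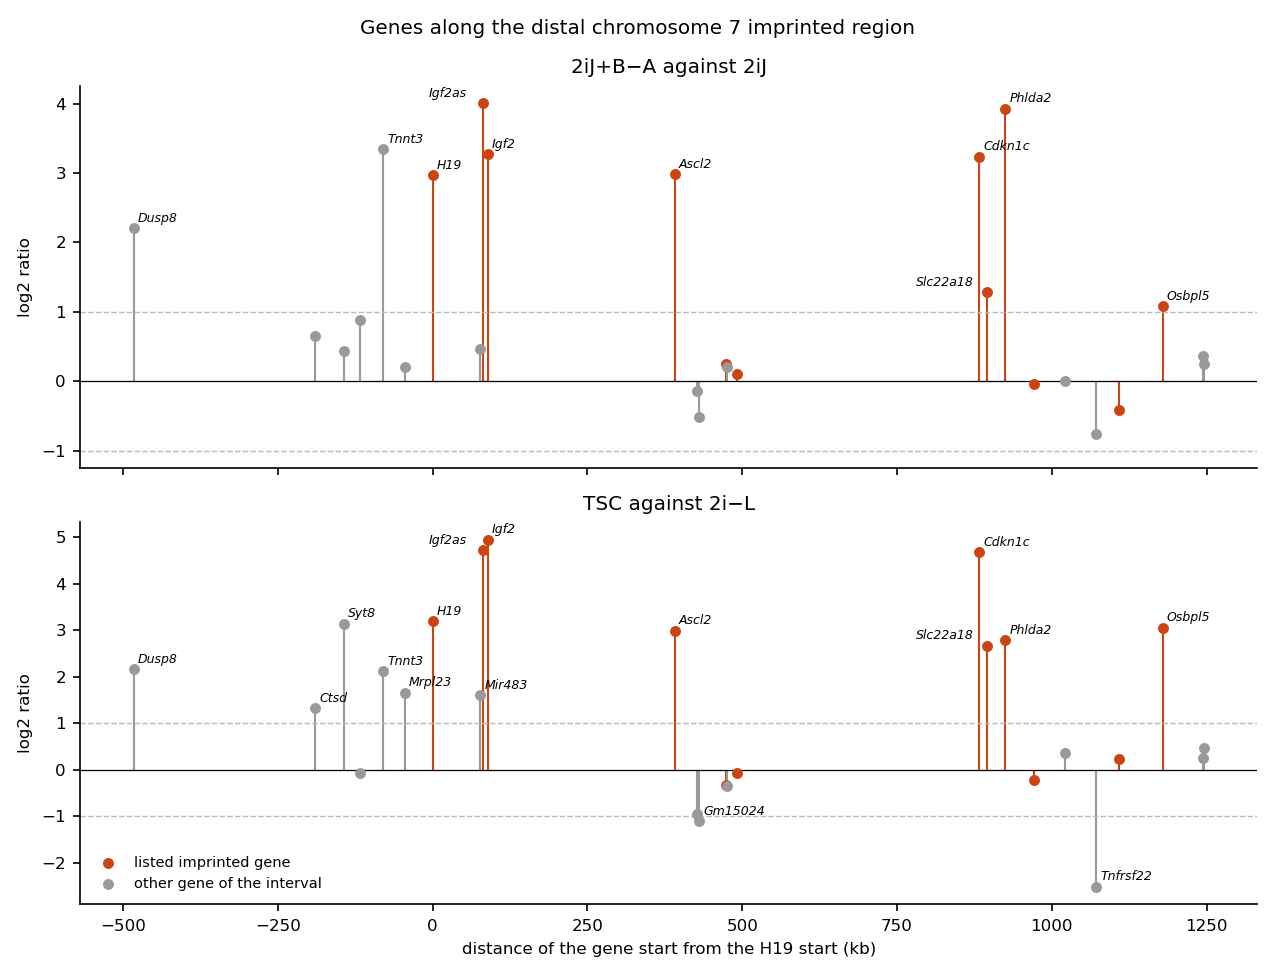
Log2 ratio (vertical axis) of each gene with at least 1 CPM along distal chromosome 7, placed by the distance of its start from that of H19 in kb (horizontal axis), for 2iJ+B−A against 2iJ (top) and TSC against 2i−L (bottom); dashed lines mark −1 and 1. Listed imprinted genes with high ratios stand between listed and other genes near 0, and Tnnt3 and Dusp8, which are not on the list, lie beyond the line in both panels.

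The Peg3 domain of proximal chromosome 7 split. Peg3 (ENSMUSG00000002265, chromosome 7 from 6656603 to 6683132, minus strand), a paternally expressed zinc finger gene, was at 84.0, 122, 264 and 748 CPM in 2i−L, 2iJ, 2iJ+B−A and TSCs. Usp29 (ENSMUSG00000051527, 6913871 to 6916480, plus strand), a paternally expressed deubiquitinase gene, was at 10.1, 17.2, 2.21 and 0.142 CPM. Peg3 was highest in TSCs, where Usp29 had 5 counts, and Usp29 was highest in 2iJ. Usp29 was the only member below the line in 2iJ+B−A compared with 2iJ, with a log2 ratio of −2.71 (−2.997 to −2.43), while that of Peg3 was 1.11 (1.06 to 1.17). In TSCs compared with 2i−L, the ratios were −4.05 and 3.15. Per kb of exon, Peg3 exceeded Usp29 by 1.63 times in 2i−L, 1.38 times in 2iJ, 23.4 times in 2iJ+B−A and 1030 times in TSCs.

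In RefSeq, the starts of Peg3 and Usp29 face each other, and their windows overlap on opposite strands, so most of the Peg3 window printed above is also the Usp29 window. The annotated Usp29 of the count tables is the 2610‐base exon that holds the coding part, and it lies next to Aurkc, a germline kinase gene that is not on the list. Aurkc had 1290 counts for 2i−L, 1021 for 2iJ, 305 for 2iJ+B−A and 1 for TSCs. Its log2 ratios of −1.81 and −6.22 had the sign of those of Usp29. Zim1, the maternally expressed gene beside Peg3, was at 1.47, 2.45, 4.07 and 13.5 CPM, and its level per kb kept between 13.6 and 17.7 times below that of Peg3 in all 4 samples. Its ratio was 0.63 (0.30 to 0.97) in 2iJ+B−A, short of the line, and 2.83 (2.49 to 3.16) in TSCs.

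In the Snrpn domain of central chromosome 7, the counterpart of the human Prader–Willi and Angelman region, none of 5 genes passed in 2iJ+B−A and 2 were lower in TSCs. Snrpn (ENSMUSG00000000948, chromosome 7 from 67127388 to 67285105, minus strand), a component of the splicing machinery, was at 155, 185, 163 and 0.285 CPM. It was thus high in every mESC sample and had 10 counts in TSCs, a log2 ratio to 2i−L of −7.63 (−7.94 to −7.25). Of its exons, 59.5% also matched elsewhere, at up to 96.4% identity, so its level is uncertain. Peg12, whose exons matched elsewhere over 93.3% at up to 88.2% identity, was at 5.11, 4.31, 2.13 and 0.741 CPM. Its ratios were −0.87 for 2iJ+B−A and −2.18 for TSCs.

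Snrpn was not accompanied by the whole domain. Ndn, a growth suppressor of neurons that lies in the same paternally expressed group, was at 7.43, 8.97, 15.0 and 6.86 CPM, and its TSC level was close to that of 2i−L (log2 ratio −0.11, −0.35 to 0.14). Magel2 was low throughout, at 0.631, 1.49, 2.82 and 0.142 CPM, from 21, 51, 106 and 5 counts. It was below 2i−L in TSCs as well, but with 0.5 CPM added the log2 ratio of −0.82 (−1.17 to −0.30) was short of the line. From 2iJ+B−A to TSCs, its ratio was −2.37 (−2.64 to −1.94). Ube3a, the ubiquitin ligase that is maternally expressed in neurons, ranged from 92.5 to 130 CPM. Per kb, Snrpn exceeded Ube3a by 2.76 to 4.09 times in the mESC samples, and stood at 0.00711 times Ube3a in TSCs.

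In the Peg10 domain of proximal chromosome 6, both paternally expressed genes were higher in both comparisons. Peg10 (ENSMUSG00000092035, chromosome 6 from 4697306 to 4710514, plus strand), a gene derived from a retrotransposon and required for the placenta, was at 437, 531, 3664 and 1435 CPM. Sgce, the sarcoglycan gene that starts beside it on the other strand, was at 4.93, 5.27, 17.2 and 20.6 CPM. Peg10 was highest in 2iJ+B−A, where it had the most counts of any member, and its ratio to 2iJ was 2.79 (2.76 to 2.81). In TSCs, Peg10 was below its 2iJ+B−A level by a log2 ratio of −1.35, while Sgce was near its own (0.26). Ppp1r9a, a maternally expressed gene of the domain, stayed between 28.0 and 54.9 CPM.

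Mest, a paternally expressed hydrolase gene, and Copg2, a coat protein gene read from the other strand and the maternal copy, stayed within 2‐fold in each comparison. Mest was at 71.8, 105, 163 and 49.2 CPM, and Copg2 was at 86.5, 81.8, 78.4 and 127 CPM. Mest was highest in 2iJ+B−A and lowest in TSCs, and Copg2 was the reverse. Their ratio per kb accordingly went from 2.37 in 2iJ+B−A to 0.441 in TSCs. The exons of Mest and Copg2 overlap over 23.0% and 20.2% of their lengths.

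In the Dlk1–Dio3 domain of distal chromosome 12, the maternal and the paternal genes went opposite ways in TSCs. The maternally expressed noncoding RNA Meg3 (ENSMUSG00000021268, chromosome 12 from 110779211 to 110809936) was at 41.1, 32.8, 47.7 and 321 CPM. Rian, the host of small nucleolar RNAs, was at 80.3, 63.7, 104 and 436 CPM, and Mirg, the host of microRNAs, at 3.79, 2.82, 4.50 and 16.9 CPM. All 3 were near one another in the mESC samples and high in TSCs, with log2 ratios to 2i−L of 2.95 (2.87 to 3.03), 2.43 (2.38 to 2.49) and 2.02 (1.77 to 2.28). In 2iJ+B−A, their ratios to 2iJ of 0.54, 0.70 and 0.59 fell short of the line. The Rian value is uncertain, because 54.5% of its exons also matched elsewhere at up to 97.8% identity.

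The paternally expressed genes of the domain peaked in 2iJ+B−A. Dlk1 (ENSMUSG00000040856, chromosome 12 from 110691033 to 110701546), a membrane ligand related to those of Notch, was at 2.38, 1.60, 20.0 and 0.427 CPM. Dio3, the enzyme that inactivates thyroid hormone, was at 7.28, 8.62, 25.6 and 3.28 CPM. Both were higher in 2iJ+B−A, with ratios of 3.28 (2.97 to 3.60) and 1.52 (1.34 to 1.70), and lower in TSCs, at −1.63 (−2.04 to −1.17) and −1.04 (−1.34 to −0.75). The interval of Dio3 in TSCs included values within 2‐fold, and the ratio was −0.96 with plain CPM. Per kb, Meg3 went from 5.42 times Dlk1 in 2i−L to 0.748 times in 2iJ+B−A and 235 times in TSCs. Dio3os, which is read antisense to Dio3 and is not on the list, had a log2 ratio of 1.07 in both comparisons. Rtl1, a paternally expressed gene derived from a retrotransposon, had 3, 0, 2 and 0 counts.

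In the Igf2r domain of proximal chromosome 17, the noncoding RNA Airn is read from the paternal copy across Igf2r and silences Igf2r, Slc22a2 and Slc22a3 there. Igf2r, the receptor that removes IGF2, was at 158, 170, 184 and 515 CPM, and was high in TSCs alone (log2 ratio 1.70, 1.66 to 1.75). Airn was at 0.331, 0.495, 1.84 and 3.90 CPM, from 11, 17, 69 and 137 counts. Its ratio of 1.23 in 2iJ+B−A had an interval from 0.76 to 1.65 and was 0.92 with 1 CPM added. Of its exons, 69.4% matched elsewhere, at up to 82.8% identity, so its level is called uncertain. Slc22a3 (ENSMUSG00000023828, chromosome 17 from 12612838 to 12700570), an organic cation transporter, was at 1.23, 2.39, 35.5 and 0.855 CPM. It was high in 2iJ+B−A alone, with a ratio of 3.64 (3.37 to 3.92) to 2iJ and of −4.73 (−5.07 to −4.38) from there to TSCs. Airn and Igf2r were therefore both highest in TSCs, and Airn and Slc22a3 were both higher in 2iJ+B−A than in 2iJ.

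**Figure D4:**
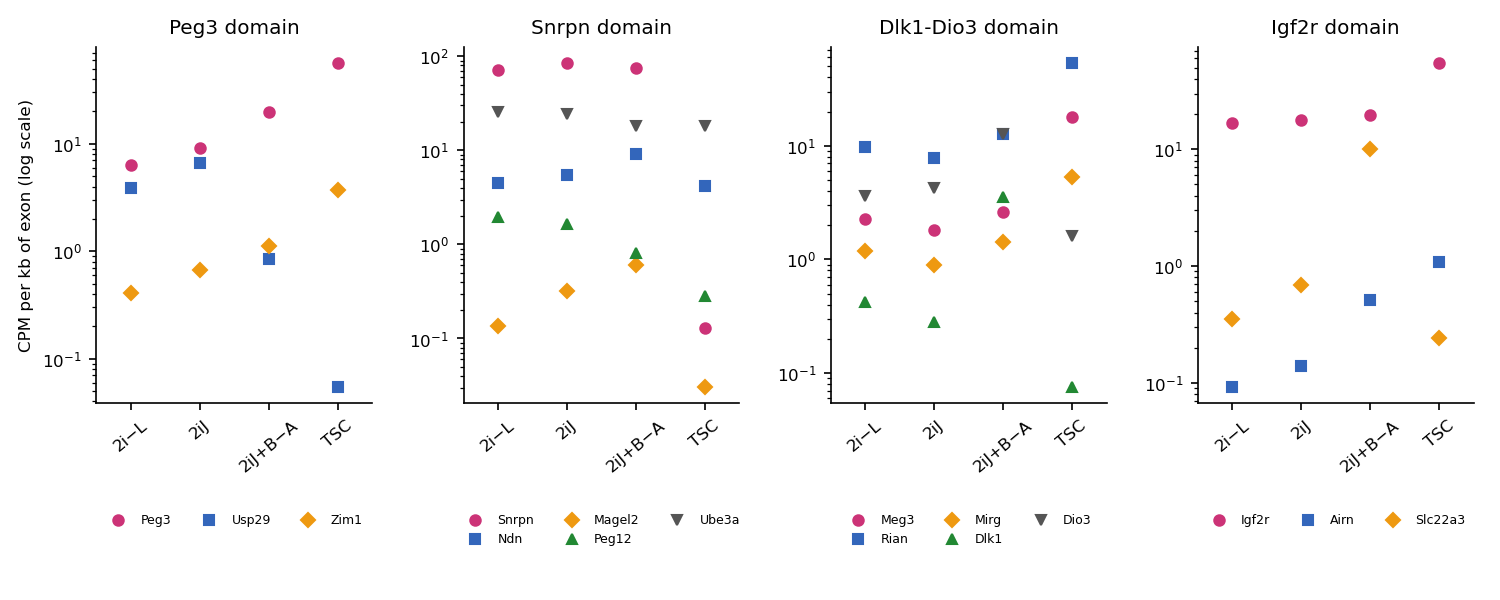
Level in CPM per kb of exon on a log axis (vertical) in each sample (horizontal) for the genes of 4 domains, with 1 symbol per gene. Peg3 and Usp29 separate from 1.38 times in 2iJ to 1030 times in TSCs, Snrpn lies below all but Magel2 of its domain in TSCs, Dlk1 and Slc22a3 peak in 2iJ+B−A, and Meg3, Rian and Mirg are highest in TSCs.

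Of the 13 genes outside these clusters, 10 had enough counts. Plagl1 (ENSMUSG00000019817, chromosome 10 from 12810497 to 12851500), a paternally expressed zinc finger gene that regulates other imprinted genes, had 5141 counts for 2i−L, 6640 for 2iJ, 7636 for 2iJ+B−A and 0 for TSCs. Its level of 155, 193 and 203 CPM in the mESC samples was at least 1809‐fold above what 3 counts in the TSC library would give, taking 2i−L as the reference. Nnat, a paternally expressed membrane protein gene, was at 4.27, 4.28 and 13.5 CPM in the mESC samples and had 0 counts in TSCs, at least 49.97‐fold lower than in 2i−L. Nnat was in addition higher in 2iJ+B−A than in 2iJ, with a ratio of 1.55 (1.30 to 1.80). Of its exons, however, 98.3% also matched elsewhere, at 89.5% identity. Impact (chromosome 18 from 13130761 to 13151457), a paternally expressed regulator of translation, was at 211, 253, 220 and 10.7 CPM, a log2 ratio of −4.24 (−4.39 to −4.10) in TSCs. Plagl1, Snrpn and Impact thus shared a pattern, with levels in the 3 mESC samples that differed by less than 1.5‐fold and a low or undetected level in TSCs.

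Grb10 (ENSMUSG00000020176, chromosome 11 from 11830511 to 11938686), a maternally expressed adaptor that dampens insulin and growth factor signaling, had the highest TSC ratio among the genes that lie alone. It was at 37.9, 38.0, 100.2 and 1101 CPM, with ratios of 1.39 (1.30 to 1.48) for 2iJ+B−A and 4.84 (4.76 to 4.92) for TSCs. Slc38a4, a paternally expressed amino acid transporter of the placenta, was at 233, 251, 873 and 604 CPM, and was highest in 2iJ+B−A (ratio 1.80, 1.76 to 1.83). Sfmbt2, a paternally expressed Polycomb‐related gene needed for trophoblast, was at 133, 150, 236 and 674 CPM. Its ratio in 2iJ+B−A, 0.65 (0.60 to 0.70), was short of the line, and it passed in TSCs at 2.34 (2.29 to 2.38). Gnas, which encodes the stimulatory G protein subunit, was at 95.9, 86.8, 153 and 295 CPM, with a TSC ratio of 1.61 that was 0.50 with the unstranded counts, and 22.0% of its exons overlap antisense transcripts.

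Zrsr1, Gab1 and Inpp5f, all paternally expressed in the tissues where they are imprinted, did not pass in any comparison. Zrsr1 ranged from 11.9 to 23.6 CPM, Gab1 from 336 to 501 and Inpp5f from 28.4 to 31.9. Rasgrf1, Dcn and Nap1l5 had too few counts. Rasgrf1 had between 2 and 8 counts. Dcn had 8, 21, 11 and 0 counts and Nap1l5 had 12, 24, 31 and 0, so both were undetected in TSCs.

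The comparisons of 2iJ+B−A with 2iJ and of TSC with 2i−L shared no sample. Of the members higher in 2iJ+B−A, 14 (77.8% of 18) were also among the 21 higher in TSCs (66.7%). Over all genes, 475 were higher in both, which was 57.4% of 828 and 17.2% of 2769. The 14 were H19, Igf2, Igf2as, Phlda2, Cdkn1c, Slc22a18, Ascl2, Osbpl5, Peg3, Peg10, Sgce, Grb10, Airn and Slc38a4, of which 8 lie on distal chromosome 7. Dlk1, Dio3 and Nnat were higher in 2iJ+B−A and lower in TSCs, Slc22a3 was higher in 2iJ+B−A and within 2‐fold in TSCs, and Usp29 was lower in both. Over all genes, 104 of the 828 higher in 2iJ+B−A were lower in TSCs, a share near that of the members (3 of 18). Of the 452 genes lower in 2iJ+B−A, 291 were also lower in TSCs. Among the 21 genes higher in TSCs, 7 were short of the line in 2iJ+B−A: Zim1, Meg3, Rian, Mirg, Igf2r, Gnas and Sfmbt2.

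**Figure D5:**
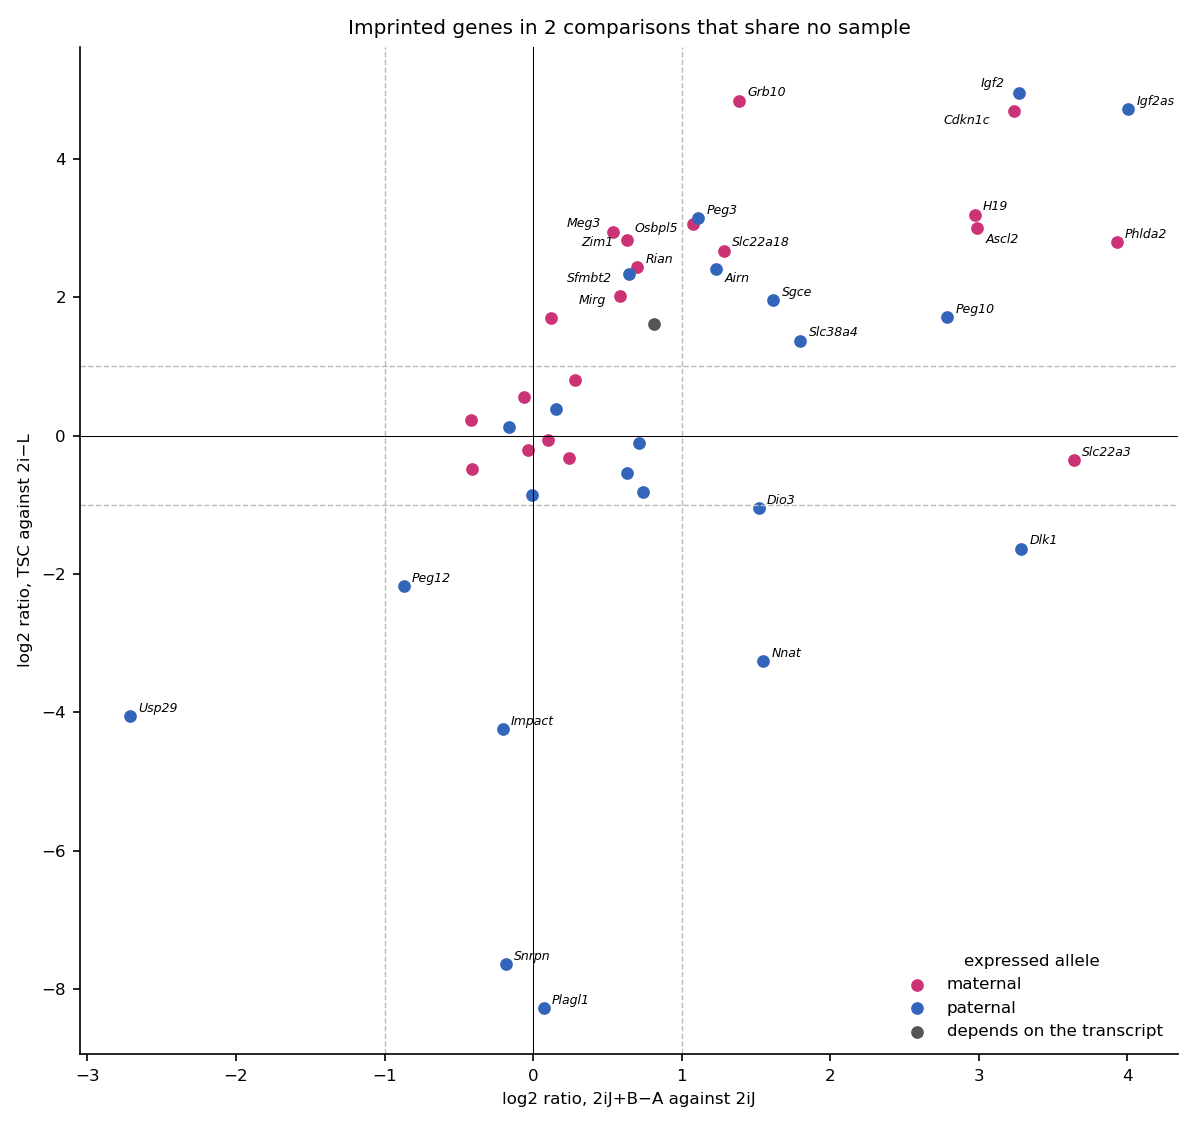
Log2 ratio of 2iJ+B−A over 2iJ (horizontal axis) against that of TSC to 2i−L (vertical axis), with 1 point per imprinted gene and the expressed allele as color; dashed lines mark −1 and 1. The 14 genes beyond both lines fill the upper right, Dlk1, Dio3 and Nnat lie at the lower right, and Plagl1, Snrpn and Impact lie near 0 across and between −8.28 and −4.24 down.

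Marker genes of cell types moved beside these results. In 2iJ+B−A compared with 2iJ, 5 of 7 trophoblast stem cell markers were higher and Eomes was lower, beside 5.81% and 3.17% of all genes. Cdx2 was at 6.70 and 33.6 CPM. Of the 8 pluripotency markers, 1 (Klf4) was higher and 1 (Tdgf1) lower. Among primitive endoderm markers with enough counts, 4 of 5 were higher there and 0 lower. Among those of mesoderm, 1 of 3 was higher and 1 lower. In TSCs compared with 2i−L, all 7 trophoblast stem cell markers were higher, beside 19.4% of all genes. Of the 8 pluripotency markers, 0 were higher there and 7 lower (all but Dppa4), beside 17.4% of all genes lower. There, 3 of the 5 primitive endoderm markers were higher and 1 lower, and 2 of the 3 mesoderm markers were higher. The 7 markers of differentiated placenta that were found summed to 3.07, 6.93, 132 and 387 CPM, of which Hand1 made up 104 and 383 CPM in the last pair. Gcm1 differed from that sum, at 1.44, 5.62, 28.0 and 0.399 CPM, and Prl3d1, Prl2c2, Tpbpa and Ctsq were at 0 in the 3 mESC samples. The 8 markers of primitive endoderm summed to 5.41, 6.23, 21.6 and 31.2 CPM (Ttr at 0 in every sample), and the 8 of mesoderm to 6.32, 6.03, 8.39 and 28.9 CPM. The 9 fibroblast markers, which feeder cells would bring, summed to 38.1, 37.4, 24.9 and 8.32 CPM. Col1a1 had 714, 646, 163 and 59 counts and Col1a2 306, 306, 201 and 0, whereas Twist1 had 12, 15, 21 and 123, Prrx1 11, 37, 110 and 20, Twist2 3, 2, 23 and 26, and Lum 0, 3, 21 and 0. The part of cell composition in the imprinted gene levels was not tested.

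Genes that keep or erase imprint methylation or silencing were listed as the machinery of the pathway, and all 25 had enough counts. In 2iJ compared with 2i−L, 1 of the 25 was higher and 0 lower, beside 1.23% and 0.918% of all genes. It was Dnmt3l, the cofactor that sets germline imprints, at 37.0 and 119 CPM (log2 ratio 1.67). In 2iJ+B−A compared with 2iJ, 1 of the 25 was higher and 2 were lower, beside 5.81% and 3.17% of all genes. The demethylase gene Tet3 was higher (1.37), and its relative Tet1 (−1.30) and the methyltransferase gene Dnmt3a (−1.21) were lower. In TSCs compared with 2i−L, 3 of the 25 were higher and 7 lower, beside 19.4% and 17.4% of all genes. The higher genes were Dnmt3b (3.09), Tet3 (2.67) and Dnmt3l (1.27), and the lower ones were Dppa3 (−6.22), Zfp445 (−4.27), Tet2 (−2.50), Hells (−2.10), Tet1 (−1.99), Trim28 (−1.63) and Zfp57 (−1.56).

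Among these, Zfp57, Zfp445 and Trim28 act together on methylated imprints, the first pair as DNA‐binding zinc finger proteins and Trim28 as their corepressor. Zfp57 was at 229, 207, 226 and 77.6 CPM, and Zfp445 was at 65.8, 65.7, 62.6 and 2.93 CPM. Both were nearly level in the 3 mESC samples and low in TSCs. Dnmt1, which copies methylation at replication, was at 367, 368, 368 and 260 CPM, within 2‐fold. Whether any of these levels bears on the imprinted genes was not tested.

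A further 34 genes known as imprinted in mouse were listed beside the members, of which 32 were found and 24 had enough counts. None passed in 2iJ compared with 2i−L. In 2iJ+B−A compared with 2iJ, 3 of the 24 were higher and 1 was lower, beside 5.81% and 3.17% of all genes. Ano1 (1.18), Calcr (1.07) and Pon2 (1.06) were the higher ones and Atp10a (−1.18) was the lower one, and the median was 0.07. In TSCs compared with 2i−L, 5 were higher and 5 lower, shares near those of all genes (19.4% and 17.4%). Pon2 (3.00), Pde10a (2.43), Gatm (2.26), H13 (1.55) and Herc3 (1.45) were the higher ones. Zdbf2 (−3.78), Ddc (−2.34), Atp10a (−1.85), Pon3 (−1.72) and Mcts2 (−1.01) were the lower ones, and the median was 0.04. These further genes thus did not share the upward median of the 43 members in either comparison.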

How the data were processed

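RNA‐seq libraries (NEBNext Ultra Directional, poly‐A selected, paired‐end) of 3 R1 mESC cultures and 1 F4 TSC culture were analysed. Per the labels and methods, the authors trimmed reads with TrimGalore and cutadapt, mapped them to NCBIM37 with STAR 2.4.2a, and deposited the whole‐number count of read pairs per gene without normalization. The ComBat adjustment of the paper is not in the counts, and the annotation release is not given in the sources used here. The count column for reverse‐stranded libraries was read. Rows that name no gene held 16.4% to 17.8% of read pairs (6.72% to 7.01% of all pairs mapped to several places) and were left out.

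TMM factors (0.969 to 1.035) came from edgeR 4.0.16 in R 4.3.3, and size factors from DESeq2 1.42.0 were an alternative. Neither tool could fit a replicated model, since each condition had 1 sample, so ratios carry intervals for counting error only. Of the gene identifiers, 37205 of 37620 were found in GENCODE vM1 on NCBIM37, which gave symbols, coordinates and exon lengths. Exons were aligned to the genome with minimap2 2.31, and a gene with over 40% of its exon bases matched elsewhere was called uncertain. Ratios were computed in Python 3.11.15 (numpy 2.4.6, scipy 1.17.1, pandas 2.3.3) and the scripts were tested on simulated counts.

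Members and lists were chosen with earlier results of these data known. A member was named with all 4 values when it had at least 1 CPM in at least 1 sample and passed 2‐fold in at least 1 comparison (30 genes), and the others were given by level or range. Alternatives were the unstranded count, other scalings, pseudocounts, filters, folds and reference samples.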

Additional observations from a re-analysis of the deposited data

Results flagged for a closer look

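Reads on the strand opposite Rtl1, which the comparisons did not use, came to 15 counts for 2i−L, 19 for 2iJ, 31 for 2iJ+B−A and 59 for TSCs, whereas the Rtl1 strand itself held 3, 0, 2 and 0 counts. The TSC value of 59 was picked out because this signal outside the main measurement stood above 2i−L, with a log2 ratio of 1.20 (interval 0.71 to 1.63). Rtl1 is paternally expressed and has a maternally expressed antisense transcript as background knowledge. Which transcript the opposite‐strand reads came from was not tested.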

How the results depend on the processing

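No paired analysis was possible because each condition has 1 sample, and for the same reason no sample could be left out. The number of members 2‐fold higher in 2iJ compared with 2i−L went from 0 to 1 with a pseudocount of 0.1 CPM and to 5 at 1.5‐fold. Of all genes, 2.96% and 5.38% passed upward under these 2 settings. In 2iJ+B−A compared with 2iJ, the 18 higher members became 9 at 4‐fold, and the 1 lower member became 2 at 1.5‐fold and 2 with 2i−L as the reference. Over all alternatives, the higher members of 2iJ+B−A numbered 9 to 26, and in TSCs compared with 2i−L the higher members numbered 16 to 22 and the lower 6 to 11. Requiring at least 1 CPM in the reference sample, an alternative chosen after seeing the data, left 16 higher and 1 lower in 2iJ+B−A and 19 higher and 8 lower in TSCs. The settings also change the share of all genes that pass, from 0.021% to 5.38% upward in 2iJ compared with 2i−L. The member counts under the alternatives are therefore no measure of excess over all genes. Of 90 single ratios, all of genes named for passing 2‐fold in a comparison, 48 were past 2‐fold. None of these changed sign under another count column, scaling, pseudocount or reference. A pseudocount added to both levels cannot change a sign, and the scalings moved these ratios by at most 0.09, too little to reverse a call. Only the count column and the reference could have done so. With the other reference samples, 3 calls were gained. Calls were lost for Gnas in TSCs with the unstranded count, for Dio3 in TSCs with plain CPM and with 1 CPM added, and for Osbpl5 and Airn in 2iJ+B−A with 1 CPM added. The ratios of genes near 0 counts depend on the pseudocount: that of Plagl1 in TSCs was −8.28, and −10.60 with 0.1 CPM added. Another scaling moved the median of all genes by at most 0.09. Depth limits statements to levels above 0.0799 to 0.0902 CPM, and variation between cultures is unknown.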

Other observations

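Genes around the Peg3 domain that were not on the list of imprinted genes differed in TSCs on both of its sides. Gm6792 had 940, 1083, 1078 and 18 counts in 2i−L, 2iJ, 2iJ+B−A and TSCs, and Zscan5b, a zinc finger gene, had 169, 170, 68 and 0. Zfp773 had 186, 177, 150 and 45 counts. Zfp667 went the other way, with 568, 609, 578 and 1860 counts (log2 ratio of TSC to 2i−L of 1.61), as did the chloride channel gene Clcn4-2, with 415, 517, 633 and 1149 (1.36). Usp29 and Aurkc were thus not the only genes of this interval with lower TSC counts. Over all genes, 17.4% were lower and 19.4% higher by 2‐fold or more in TSCs compared with 2i−L. Other zinc finger genes of the interval (Zfp78, Zfp28, Zfp954, Zfp583 and Zfp418) stayed within 2‐fold.

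Downstream of H19, the lysosomal protease gene Ctsd (log2 ratio of TSC to 2i−L of 1.33), the synaptotagmin gene Syt8 (3.15, from 3 and 166 counts) and the mitochondrial ribosomal gene Mrpl23 (1.67) were higher in TSCs, and none of these passed in 2iJ+B−A compared with 2iJ, with ratios of 0.64, 0.43 and 0.21. The microRNA host entry Mir483, which lies within Igf2, had 0, 0, 7 and 36 counts. Inpp5f, a member within 2‐fold everywhere, had 108, 118, 162 and 160 counts on the opposite strand.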
